A study of Mus musculus with 2 samples.

Results

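Oxidative phosphorylation genes encode the respiratory chain and the ATP synthase of mitochondria. Their messenger RNA was compared between 2 stable lines of ATDC5, a mouse cell line used as a model of chondrocytes. The control line carried the fluorescent protein GFP, and the second line, by its labels, overexpressed HES1, a repressor of transcription downstream of Notch receptors. Both were made by lentiviral transduction, kept as monolayers in 60 mm dishes for 3 days, and hybridised as Cy3-labelled cRNA from total RNA to 1 single-colour Agilent mouse array each. The labels do not give the promoter, the species or the part of HES1 in the vector, nor whether a line was a clone or a pool, and no sample is an untransduced culture. The members were chosen by symbol alone, as genes beginning with Nduf, Uqcr or Atp5, genes beginning with Cox4 to Cox8, and Sdha to Sdhd. A RefSeq gene table held 115 such symbols, 93 of them had a probe named through its RefSeq accession, and 89 kept one after spots with the scanner's outlier flags were left out. Of these, 87 were measured, of 14273 genes measured in all. A gene was measured where a probe stood well above background in either line or both, and it was represented by its brightest such probe.

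The mitochondrial inner membrane holds 4 respiratory complexes and the ATP synthase, which is called complex V. Complex I takes electrons from NADH and complex II from succinate, and both pass them to ubiquinone. Complex III hands them on to cytochrome c, and complex IV gives them to oxygen. Complexes I, III and IV pump protons, and complex V uses the returning protons to make ATP. Most subunits are encoded in the nucleus, and assembly factors join the parts without staying in the finished enzyme. Chondrocytes live in tissue with little oxygen and draw much of their ATP from glycolysis.

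Each group held 1 array, without replicates, so differences carry neither a replicate check nor a p-value, and counts are set beside the same share over all genes. Signals are in scanner units after scaling, which gave each array a 75th percentile of 1057.2. A gene's level can be set against itself on the other array, never against another gene's. Differences are log2 values, HES1 line minus GFP line. The technical error of a member's difference, as the scanner software gives it, had a median of 0.20, which was also its lowest value. It is called the scanner error here, and for bright members it acted as nearly 1 fixed cut. Over 235 probes with at least 8 kept spots, the median SD of a log2 difference from the spots was 0.09. The 8 spike-in RNAs differed between the arrays by -0.08 to 0.10. Spots well above background made up 54.6% (GFP) and 56.6% (HES1). The single mouse Hes1 probe was at 10.2 and 10.3, well above background in neither line, so it checked neither label, and the lines are named here by their labels. Of 10 chondrocyte markers 7 were measured, and Matn1, Matn3 and Hapln1 stood well above background in neither line. The summed signal of all 10 was 19947 in the GFP line and 12075 in the HES1 line, most of it from Col2a1. Of the 7 measured, 5 were below 0 (71.4%, against 55% of all genes), with a median of -0.37. Col2a1, the main collagen of cartilage, had 13796 and 7379, Acan 178 and 137, and Sox9, a transcription factor of chondrocytes, 3683 and 3227. Col9a1 and Col10a1 were above 0, and Col10a1 counted as measured only through the HES1 line, where it was higher. The part of these markers in the subunits' values, described next, was not tested.

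Subunit genes of all 5 complexes had a slightly lower signal in the HES1 line. Of 74 measured subunits, 71 had a difference below 0 (95.9%), and the median of -0.31 put the HES1 signal at 80.6% of the GFP signal. Over all genes measured, 55% had a difference below 0 and the median was -0.06. Most subunit probes were bright: their median signal stood at the 95.8th percentile of all genes measured. Genes of like brightness were therefore taken as a second background, those between the 25th and 75th percentile of the subunits' signal. Of these 852 genes, 64.4% had a difference below 0, with a median of -0.15, so the subunits' median lay 0.17 further down. Loess was also used to remove the trend of differences with brightness, which moved the median of all genes by 0.14, to 0.079. After it, 54 of the 74 subunits were below 0 and their median was -0.12, while 393 of the 852 genes of like brightness were below 0 with a median of 0.04.

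The differences were small for single genes. Of 87 measured members, 2 were higher by 2-fold or more and 0 were lower by as much, against 11.1% and 4.95% of all genes. At least 1.5-fold lower were 6 members (6.90%), against 14.6% of all genes and 11.9% of genes of like brightness. These 6 were Ndufa4, Ndufb10, Ndufb11, Atp5g2, Atp5o and Uqcrfs1. After loess 2 of them, Ndufa4 and Ndufb10, were lower by as much (2.3% of members). Of all genes 10.5% were, and of genes of like brightness 5.52%. Under normexp Ndufa4, Ndufb10 and Atp5o were (3.45% of members), against 1442 of all 14273 genes and 12.2% of genes of like brightness. Under quantile normalization 5 were, without Ndufb11 (5.75%, against 15.3% of all genes). Scaled to the median of probes 4 were, without Atp5o and Uqcrfs1 (4.6%, against 13.7% of all genes). Counting every measured member, 74 of 87 were below 0 (85.1%, against 55% of all genes). After loess 65.5% were, and so were 393 of the 852 genes of like brightness. Lower by more than the scanner error were 56 of 87 (64.4%), against 37.5% of all genes and 44.2% of genes of like brightness. After loess these were 27 of 87 (31.0%), 26.5% and 23.7%. The 2 members past 2-fold, Cox6a2 and Ndufa4l2, were among the dimmest. Ndufa4l2 was well above background in the HES1 line only, so it counted as measured only through the array where it was high. Bulk RNA gives an average over a culture, so fewer cells of a type and less RNA per cell cannot be told apart.

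**Figure D1:**
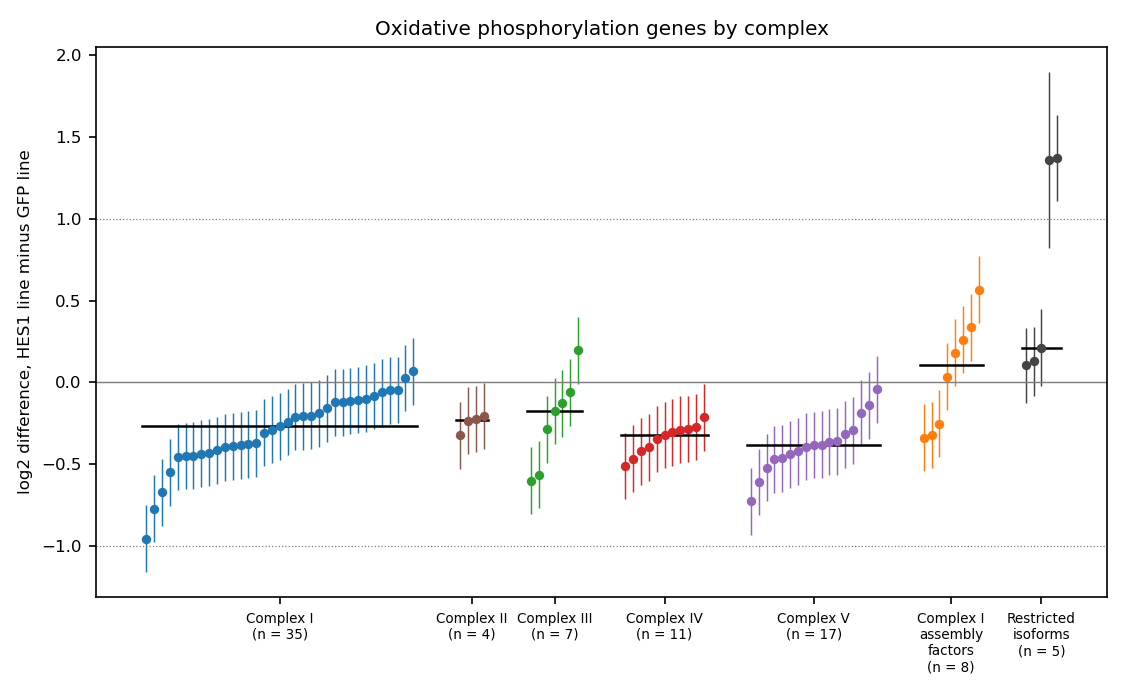
Each point is 1 measured gene and gives its log2 difference, HES1 line minus GFP line; vertical lines are the scanner software's error, black bars are group medians, and dotted lines mark 2-fold. Subunits of complexes I to V lie mostly below 0 (71 of 74), while the assembly factors lie on both sides and 2 restricted isoforms lie above 1.

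**Figure D2:**
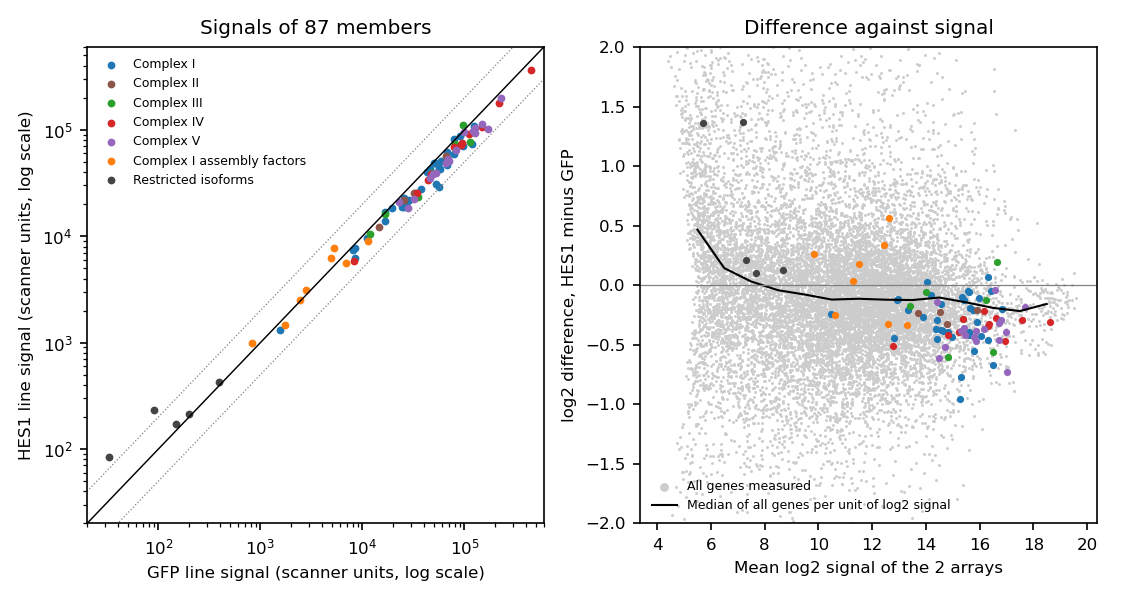
The left panel sets each member's signal in the HES1 line against its signal in the GFP line on log scales, with equality as a solid line and 2-fold as dotted lines. The right panel plots the log2 difference against mean log2 signal, with all genes in grey (genes beyond the panel's limits are not drawn), their median per unit of signal in black and members in the same colours; most subunits lie below the black line at high signal.

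Promoter sequence was read for members that lay together and for one that went the other way. RefSeq promoter windows on GRCm38.p6 run from 250 bases before to 50 after a gene's start, and 72 of the 87 measured members had one. The 250 bases before the start are shown for the lowest member of complex I, for the membrane-arm gene Ndufb10, for the lowest member of complex V and for the assembly factor with the highest difference. They lie at chr6:11907451-11907700 for Ndufa4, chr17:24724424-24724673 for Ndufb10, chr15:102671048-102671297 for Atp5g2, all on the minus strand, and chr4:24897833-24898082 for Ndufaf4 on the plus strand. Capitals mark matches to the core motif of NRF1, a transcription factor of mitochondrial genes, and all are written 5′ to 3′. The bases shown for Ndufa4 and Ndufb10 hold no match to it.
Ndufa4: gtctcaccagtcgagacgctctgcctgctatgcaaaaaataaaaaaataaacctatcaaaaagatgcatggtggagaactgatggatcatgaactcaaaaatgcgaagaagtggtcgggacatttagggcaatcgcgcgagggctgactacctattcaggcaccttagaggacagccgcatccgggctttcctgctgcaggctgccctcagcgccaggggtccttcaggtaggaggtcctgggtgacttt
Ndufb10: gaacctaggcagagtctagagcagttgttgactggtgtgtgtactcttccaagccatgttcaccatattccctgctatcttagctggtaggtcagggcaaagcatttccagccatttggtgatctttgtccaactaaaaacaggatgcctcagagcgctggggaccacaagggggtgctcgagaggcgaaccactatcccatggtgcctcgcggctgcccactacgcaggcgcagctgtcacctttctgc
Atp5g2: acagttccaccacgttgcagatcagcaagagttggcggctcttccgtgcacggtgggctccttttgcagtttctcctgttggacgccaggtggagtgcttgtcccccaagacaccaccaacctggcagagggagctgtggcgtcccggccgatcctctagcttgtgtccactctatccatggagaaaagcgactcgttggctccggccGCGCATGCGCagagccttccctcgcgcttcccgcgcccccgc
Ndufaf4: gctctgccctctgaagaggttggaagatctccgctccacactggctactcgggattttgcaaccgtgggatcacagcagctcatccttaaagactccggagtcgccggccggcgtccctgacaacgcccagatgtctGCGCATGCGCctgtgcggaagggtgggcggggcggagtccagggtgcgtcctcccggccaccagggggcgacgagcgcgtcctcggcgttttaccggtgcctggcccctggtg

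The same NRF1 core therefore stood in the upstream bases of Atp5g2, which was lower in the HES1 line, and of Ndufaf4, which was higher. Searched over the whole 300-base windows, this core, which reads the same on both strands, was in 5 of 68 windows of measured subunits (7.35%) and in 0.971% of all 32851 windows, which include genes of every tissue and noncoding genes. The subunits with it were Atp5g2, Atp5k, Cox6a1, Ndufa11 and Uqcrc1, with differences from -0.73 to -0.18, and the assembly factors with it were Ndufaf4 at 0.57 and Ndufaf5 at 0.26. Searched on both strands likewise, the ETS motif CCGGAAG was in 23.5% of subunit windows against 8.86% of all, the YY1 motif AAGATGGC in 13.2% against 2.75%, and the ERR motif TCAAGGTCA in 2.94% against 0.423%. The N-box CACNAG, a site that HES proteins can bind, was in 54.4% of subunit windows and 42.5% of all. The 34 subunits with an N-box had a median difference of -0.34 and the 29 without one -0.32. These matches describe letters in a window and are not measured binding.

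Complex I was covered by 35 measured subunits, of which 33 were below 0, with a median of -0.27 (21 below 0 and a median of -0.11 after loess). Ndufa4 was the lowest of all members, with a signal of 55672 in the GFP line and 28702 in the HES1 line, or 1.94-fold lower. It was first described in complex I and is now placed in complex IV, and it stayed the lowest member under every alternative scaling, from -0.97 to -0.77. Ndufb10 had signals of 52874 and 30942 (1.71-fold lower) and Ndufb11 of 117682 and 73821 (1.59-fold lower). Both encode accessory subunits of the membrane arm, through which protons pass. A second Ndufb11 probe, with signals of 567 and 293, gave -0.96.

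The redox core of complex I was not uniform. Ndufv1 binds NADH through its flavin and Ndufv2 carries an iron-sulphur cluster beside it, and their differences were -0.39 and -0.40. On the quinone side, Ndufs8, which holds a pair of iron-sulphur clusters, went from 8509 to 6241 (-0.45). Ndufs3 was at -0.10 and Ndufs7, which carries the last cluster before ubiquinone, at -0.05. Both lay within the scanner error of 0.20, and the sign of both turned after loess (0.09 and 0.15). Grouped by name, a grouping chosen after the values were seen, the 10 Ndufb genes had a median of -0.38 and the 7 measured Ndufs genes one of -0.10. After loess those medians were -0.21 and 0.09. The highest subunits of complex I were the accessory subunits Ndufa7, at 78696 and 82497 (0.07), and Ndufs4, at 16711 and 17017 (0.03, with the sign turned under normexp). Both lay well inside the scanner error. The probes of Ndufs1, a core iron-sulphur subunit, and Ndufc1 had an outlier flag and were left out; with flagged spots kept they gave -0.15 and -0.61. Ndufb1 had no probe named through an accession.

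Complex II had the narrowest spread, with all 4 subunits between -0.32 and -0.21. The signal of Sdha, the flavoprotein that oxidises succinate, was 25572 in the GFP line and 21894 in the HES1 line (-0.22). Sdhb, the iron-sulphur subunit, had 65458 and 56752 (-0.21). For the membrane anchors, Sdhc had 14375 and 12228 (-0.23) and Sdhd 31670 and 25318 (-0.32). All 4 were lower by slightly more than their scanner error of 0.20. Of genes of like brightness to the subunits as a whole, 44.2% were lower by more than theirs. Those genes had mean signals of 24175 to 81061, while the 4 ran from 13258 to 60950. The share is therefore only partly matched to the brightness of complex II. After loess all 4 were below 0 with a median of -0.07, and 0 of 4 passed the scanner error. Scaled to the median of probes, 2 of 4 passed it. Second probes of Sdhb and Sdhc gave -0.26 and -0.23.

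Complex III was the most mixed, with a median of -0.18 over 7 measured subunits and 6 of them below 0 (-0.02 and 4 after loess). Uqcrfs1, the Rieske iron-sulphur protein that takes electrons from ubiquinol, went from 35426 to 23357 (1.52-fold lower). Uqcrh, the hinge protein beside cytochrome c1, went from 112605 to 76212 (1.48-fold lower), and its second probe gave -0.41. The core proteins Uqcrc1 and Uqcrc2, which carry no redox centre, were at -0.18 and -0.06. Uqcrc2 was printed on the array in 8 kept spots, whose SD was 0.03 on each array, and its sign turned after loess (0.10). Uqcrb was at -0.29. Cyc1, the cytochrome c1 subunit, lies outside the symbol rule and was not counted here; it was at -0.27. Uqcrq, a small subunit near the quinone site, had 96543 and 110620 (0.196), and its second probe gave 0.11. Both of its probes lay above 0, but inside the scanner error of 0.204. The only probe of Uqcr11 had an outlier flag and was left out; with flagged spots kept it gave -0.57.

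Complex IV had all 11 measured subunits below 0, between -0.51 and -0.21, with a median of -0.32. All 11 were lower by more than their scanner error, against 44.2% of genes of like brightness to the subunits as a whole. Those genes had mean signals of 24175 to 81061, while the 11 ran from 6998.5 to 405633. The share is therefore not matched to the brightness of complex IV. After loess all 11 were below 0 with a median of -0.12, and 4 passed the scanner error. Under quantile normalization and under normexp 7 passed it. Cox6b1, which faces cytochrome c in the intermembrane space, had the largest difference at 8354 and 5863 (1.42-fold lower). Cox4i1, the largest nuclear subunit, went from 148066 to 107093 (1.38-fold lower). Cox5a had 92345 and 72662 (-0.35), and the zinc-binding Cox5b had 47248 and 38770 (-0.29). Among the ubiquitous forms of small subunits, Cox7a2 was at -0.42, Cox6a1 at -0.31, Cox8a at -0.29 and Cox7b at -0.21. Cox7a2l, which helps to join complexes III and IV into supercomplexes, was at -0.27. The catalytic subunits of complex IV are encoded in mitochondrial DNA and are not members by symbol.

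Complex V had the lowest median, -0.38 over 17 measured subunits, all of them below 0 (14 of 17 and -0.19 after loess). In the F1 head, where ATP is made, the catalytic beta subunit Atp5b had 227067 and 199468 (-0.19, turned to 0.03 after loess). The alpha subunit Atp5a1 went from 52024 to 38868 (-0.42) and the rotating gamma subunit Atp5c1 from 69111 to 53025 (-0.38). Atp5d, the delta subunit at the foot of the central stalk, had 31894 and 22214 (1.44-fold lower). In the peripheral stalk, which holds the head still, Atp5o had 28246 and 18529 (1.52-fold lower) and Atp5pb 23008 and 20880 (-0.14, turned to 0.03 after loess).

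The 3 genes for the c ring differed among themselves. They encode the same mature protein behind different mitochondrial import sequences. Atp5g2 had signals of 169627 and 102561 (1.65-fold lower), and its second probe gave -0.66 against -0.73. Atp5g3 had 128057 and 92816 (-0.46). Atp5g1 had 98656 and 95782 (-0.04), which became 0.16 after loess and also turned sign under quantile normalization. Both probes of Atp5g2 were thus lower by more than the scanner error, while the difference of Atp5g1 was smaller than it.

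Set side by side, the complexes ran from complex V at -0.38 through complex IV at -0.32, complex I at -0.27 and complex II at -0.23 to complex III at -0.18. The gap of 0.21 between the ends was about the scanner error of a single gene, and the ranges of subunits overlapped in all 10 pairs of complexes. That order of medians was the same under quantile normalization, loess, normexp and the median over a gene's probes, which all start from the same 2 hybridisations. Keeping flagged spots, which adds Uqcr11, put complex III at -0.23 and so below complex II. With Ndufa4 counted in complex IV, the medians were -0.26 for complex I and -0.33 for complex IV.

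**Figure D3:**
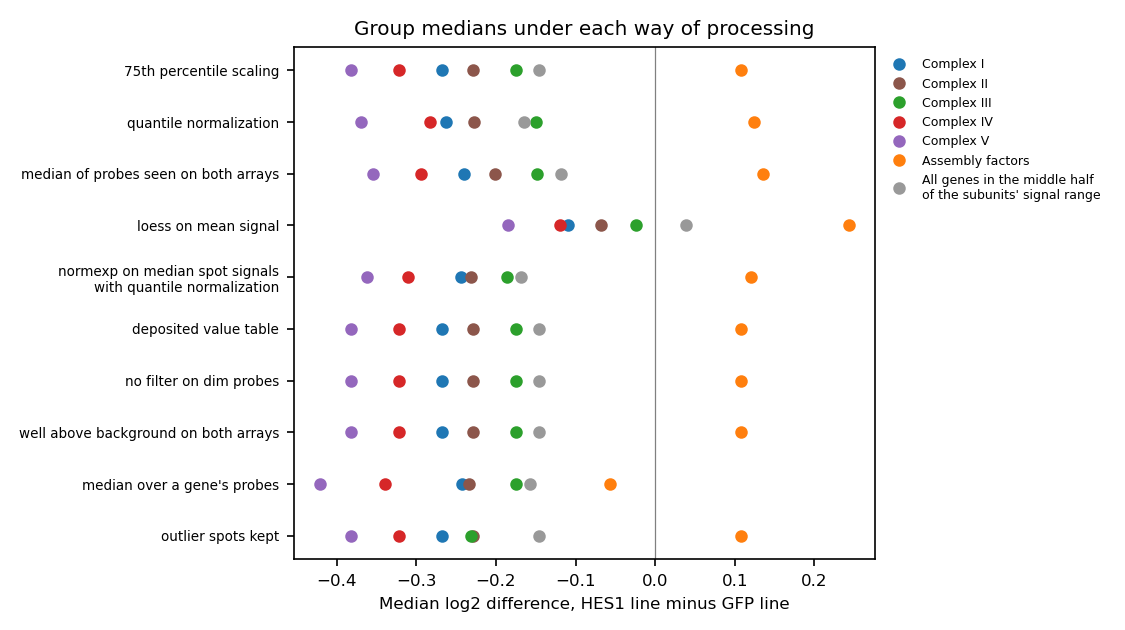
Points are median log2 differences (horizontal axis) of each complex, of the assembly factors and of all genes between the 25th and 75th percentile of the subunits' signal, under 10 ways of processing (rows). Complex V lies furthest left in each row, all medians move right under loess, and the assembly factors lie right of 0 except with the median over a gene's probes.

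The complex I assembly factors chosen by symbol (Ndufaf) lay on both sides of 0. Of 8 measured, 5 were above 0 and 3 below, with a median of 0.11, against 39.6% above 0 and a median of -0.12 over the 5799 genes in their signal range. Ndufaf4 had a signal of 5234 in the GFP line and 7752 in the HES1 line (0.57), and its second probe gave 0.39. Ndufaf1 went from 4931 to 6227 (0.34). Ndufaf5 was at 0.26 by its brightest probe, but its other probe, with signals of 63.7 and 43.2, gave -0.56, so its sign turned with the median over probes. Ndufaf6 was at 0.18 and Ndufaf8 at 0.04. The lower factors were Ndufaf2, a factor that joins complex I late in assembly, at -0.34, Ndufaf7, a methyltransferase, at -0.32, and Ndufaf3 at -0.25. By the 75th percentile scaling 0 of 8 were past 1.5-fold, against 10.6% of genes in that range that were higher and 14.6% that were lower by as much. Ndufaf4 passed 1.5-fold under quantile normalization (0.60), scaling to the median of probes (0.59) and loess (0.71). The factors' median lay 0.42 above that of the subunits, and with the median over a gene's probes it was -0.06, which is 0.26 above.

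Isoforms with restricted expression were dim, and none of the 5 measured was below 0, against 44.4% of the 3470 genes in their signal range. Of these 5, Ndufa4l2 counted as measured only through the HES1 line, the array where it was high. With both arrays required to be well above background, 4 remained, and 0 of them were below 0. Cox6a2, the heart and muscle form of subunit 6a, had signals of 90.6 and 235 (2.59-fold higher). Ndufa4l2, a paralog of Ndufa4 that hypoxia induces in many cells, had 32.6 in the GFP line, not well above background, and 83.7 in the HES1 line, at least 2.19-fold higher. In that signal range 17% of genes were at least 2-fold higher. Under normexp with quantile normalization the differences of these 2 were 0.68 and 0.39, so neither was past 2-fold. The others lay inside the scanner error: Cox4i2, a form induced at low oxygen, at 0.13, the muscle form Cox7a1 at 0.10 and the testis form Cox6b2 at 0.21. The last pair turned sign under normexp. The muscle form Cox8b and the testis form Cox8c were not well above background on either array, and neither was Cox7b2, whose probe was left out for an outlier flag. The copies Ndufb4b and Ndufb4c had no probe named through an accession, nor had 19 pseudogenes.

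Muscle and testis markers were read beside these forms. Of 8 muscle markers, 5 (Myod1, Myog, Ckm, Actc1 and Des) were not well above background on either array, and the summed signal of the 8 was 1369 in the GFP line and 2339 in the HES1 line. Tnnt2 had 138 and 806 and Myh7 110 and 603, while Acta1, the brightest of the 3 measured, had 1043 and 863. Of 5 testis germ cell markers 3 were measured, with a summed signal of 624 and 2706 over the 5, mostly from Prm1 at 402 and 2403. Prm2 had 109 and 174, and Tnp1 went the other way at 72.3 and 68.3. Of 5 macrophage markers 3 were measured (summed signal 2593 and 2626), and Tyrobp was well above background in neither line. Of 5 adipocyte markers 1 was measured, 1 was left out for an outlier flag, and Ucp1 was not well above background (summed signal 166 and 134 over 4). The part of these markers in the isoform values was not tested.

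Several probes of a gene gave a check on the array within each sample. For 24 members with 2 or more probes well above background on both arrays, 20 had all probes below 0, 2 all above and 2 on both sides. The median spread between probes of a gene was 0.10, less than the scanner error. The members with probes on both sides were Ndufaf5 and Ndufv3, whose second probes were far dimmer. For Atp5l, a membrane subunit of complex V, 5 probes gave differences between -0.44 and -0.32. Such probes share the RNA of 1 culture and do not replace replicates. Several subunits have near-identical processed pseudogenes, which a probe may also read.

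**Figure D4:**
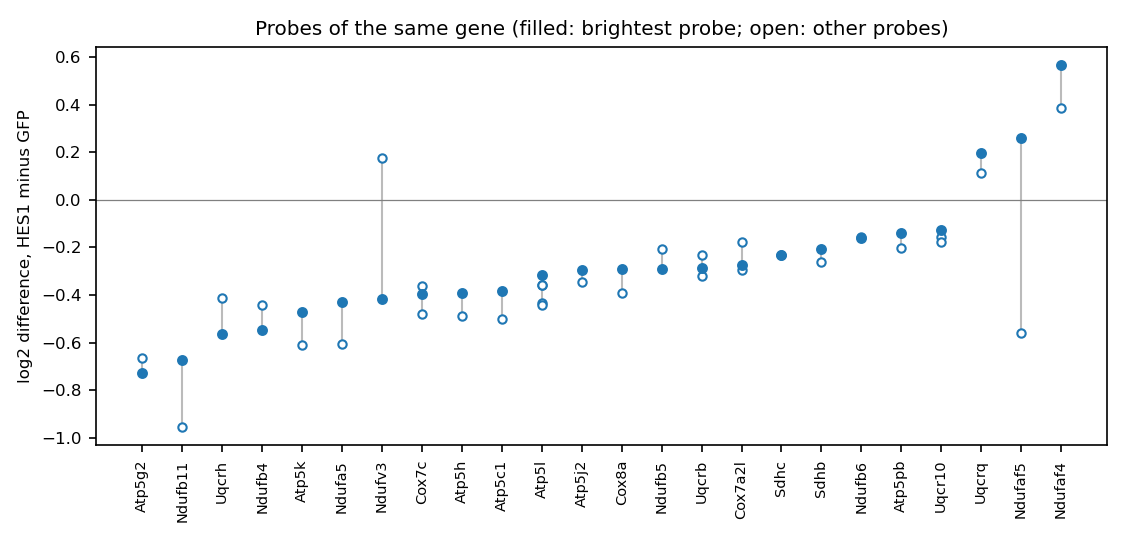
For the 24 members with several probes well above background on both arrays, each circle is 1 probe's log2 difference, HES1 line minus GFP line; filled circles are the brightest probe, open circles the others, and grey lines span them. Uqcrq and Ndufaf4 have all probes above 0, and Ndufaf5 and Ndufv3 have probes on both sides of 0.

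Other genes of the pathway were read from gene lists. Of 54 electron carriers, ubiquinone synthesis genes and assembly factors outside the symbol rule, 51 were measured, with a median of -0.06. Below 0 were 27 (52.9%, against 55% of all genes) and above 0 were 24. In that list 1 gene was higher by 2-fold or more and 0 were lower, against 11.1% and 4.95% of all genes. This was Cox18, which inserts part of a complex IV subunit into the inner membrane, at 8708 and 22471 (2.58-fold higher). The lowest of the list was Sdhaf4, at -0.63. Sco1, a copper chaperone for complex IV, was at 0.83. Cyc1, the cytochrome c1 subunit of complex III, was at -0.27 and Cycs, cytochrome c itself, at 0.28. Genes of the tricarboxylic acid cycle and of pyruvate dehydrogenase were nearer to the subunits: 16 of 17 (94.1%) were below 0 with a median of -0.27 (-0.10 after loess), against 55% of all genes and 64.4% of genes of the subunits' brightness, and 0 were past 2-fold. Ogdh, part of the oxoglutarate dehydrogenase complex, had 13362 and 8050 (-0.73).

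Regulators of mitochondrial biogenesis and mitochondrial DNA upkeep had a median of -0.08 over 20 measured of 21, with 13 below 0 (65.0%, against 55% of all genes). Higher by 2-fold or more were 2, near the 11.1% of all genes, and 0 were lower by as much. In the GFP line neither of that pair was well above background, so both counted as measured only through the array where they were high. Ppargc1a, the coactivator PGC-1alpha, had 98.1 in the HES1 line (at least 2.57-fold higher). The nuclear receptor gene Esrrg had 8.83 and 101 (at least 2.64-fold higher). Their scanner errors were 0.56 and 1.46, and the bound of Esrrg, 1.40 in log2, was smaller than its error. Nrf1, whose protein binds the motif shown above, went from 2583 to 1847 (-0.48). Tfam, which packages and helps to transcribe mitochondrial DNA, was at 0.16, and Polg, the mitochondrial DNA polymerase, had 5190 and 2667 (-0.96).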

How the data were processed

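The members and gene lists were chosen with earlier results of these data known. Per the file headers, the deposited scanner files hold an intensity per spot, processed and background-corrected by the scanner software but not scaled between arrays, and both arrays lay on 1 slide. The submitters' processing notes and the headers name Agilent Feature Extraction 10.10.1.1. The authors' deposited value table is an intensity equal to the scanner signal times 1 factor per array (1.45 for GFP, 1.53 for HES1), with a 75th percentile of 1057.2 on both arrays and medians of 67.7 and 76.6.

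Here the processed signal of 59305 spots that are not controls was divided by its 75th percentile on that array and put on a log2 scale. Spots with an outlier flag on either array were left out (1053), and 0 spots were saturated. A probe's spots were averaged, and 26869 of 54948 probes (48.9%) had 1 symbol, none several, through a RefSeq table of GRCm38.p6 used for names. Bounds set the bright signal against the higher of the dim probe's own signal and the lowest signal well above background (38.1 for GFP, 39.0 for HES1). Named were members past 2-fold or seen on 1 array, the 3 lowest and 2 highest of each complex, core subunits and isoform sets; all other genes named were chosen after their values were seen. The main steps were tested on simulated data with changes larger than those of the subunits. Loess, normexp and small differences were not part of that test. Python 3.11.15, statsmodels 0.14.6 (loess, span 0.3) and limma 3.58.1 (normexp, offset 50, on median spot signals because mean signals were not in the files used here) were run. The number of arrays limits the precision.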

Additional observations from a re-analysis of the deposited data

How the results depend on the processing

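Of 44 named genes, 382 of 395 values under the 9 alternative ways of scaling, correcting, filtering and averaging stayed within the scanner error of the main value, 13 moved further, all of these under loess or normexp. Members lower by more than their scanner error numbered 56, but 51 by the median of probes, 49 under quantile normalization, 49 under normexp and 27 after loess. In that order these were 64.4%, 58.6%, 56.3%, 56.3% and 31.0% of members, against 37.5%, 35.1%, 37.9%, 32.6% and 26.5% of all genes. Counted over all 87 members, 66 kept their sign under each setting. Loess accounted for most of the movement: the share of members below 0 was 65.5%, the median of all members -0.10, and the medians of complexes I to V -0.11, -0.068, -0.024, -0.12 and -0.19. Under it the median of all genes was 0.079. The medians of the 3 other lists were 0.079 for carriers and assembly factors, 0.064 for biogenesis regulators and -0.10 for the tricarboxylic acid cycle. The subunits' median relative to genes of like brightness, a measure added after the data were seen, ran from -0.17 to -0.12 over the 9 alternatives. The count of members at least 2-fold higher was 0 under normexp, 1 where both arrays had to be above background and 0 at 3-fold. At 1.5-fold 6 were lower, but 2 after loess, 3 under normexp and 7 with flagged spots kept. By the median of probes 4 were, and under quantile normalization 5. With the median over probes the factors lay 0.26 above the subunits. No paired analysis was possible because each group held 1 array. Leaving out a replicate and a slide block could not be run for that reason and because both arrays lay on 1 slide. Of the 87 members, 86 were well above background on both arrays.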

Other observations

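Subunits with the YY1 motif AAGATGGC in their promoter window had smaller differences than the rest, a comparison made after the values were seen and not tested. The 9 with it had a median of -0.14, and the 54 with a window but no match had -0.35. Among the 9, Ndufs4, Ndufs6 and Ndufs7 are Ndufs genes, whose family median was -0.10, so motif and family were not separated. The 9 were Atp5j at -0.36, Atp5j2 at -0.29, Atp5pb at -0.14, Ndufa3 at -0.44, Ndufa9 at -0.08, Ndufb8 at -0.46, Ndufs4 at 0.03, Ndufs6 at -0.05 and Ndufs7 at -0.05, so they fell on both sides of the subunits' median of -0.31. For the NRF1 core the medians were -0.31 with (5 genes) and -0.33 without (58 genes), and for the ETS motif -0.34 with (16 genes) and -0.29 without (47 genes).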
